A study of Mus musculus with 6 samples.

Results

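The Hippo pathway restrains growth and sets cell identity by controlling the coactivator YAP. The kinases MST1 and MST2, with the adaptor SAV1, switch on the kinases LATS1 and LATS2, which phosphorylate YAP and its relative TAZ and keep them out of the nucleus. Unphosphorylated YAP enters the nucleus and works with the DNA-binding TEAD proteins. In the mouse morula the pathway reads cell position. Angiomotin and NF2 activate LATS at the junctions of inner cells, whereas outer cells keep angiomotin at the apical membrane, hold YAP in the nucleus and switch on trophectoderm genes such as *Cdx2* through TEAD4.

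Transcript levels of 10 Hippo genes were examined in control KD and *Yy1* KD morulae, out of 55364 genes listed. The 10 were chosen by name for their roles in the pathway, with earlier results of these data known, and all 10 were found by symbol. They are the scaffold and adaptor genes *Nf2* and *Sav1*, the kinase genes *Lats1* and *Lats2*, the angiomotin genes *Amot* and *Amotl2*, the coactivator genes *Yap1* and *Wwtr1* (which encodes TAZ), and the transcription factor genes *Tead1* and *Tead4*. Both groups were BDF1 x BDF1 embryos, fertilized in vitro and grown in KSOM medium. Zygotes received either a control siRNA or an siRNA against *Yy1*, which encodes a zinc finger transcription factor, and each of the 3 libraries per group was made from pooled morulae. A pool mixes inner and outer cells. Nothing says whether the pools came from separate fertilizations, so that p-values measure the spread between these pools. One siRNA was used against *Yy1*, so an effect of the sequence on other transcripts and an effect of *Yy1* cannot be told apart.

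Values are TPM, in which read pairs are divided by the exon length of a gene and scaled so that the genes of a library sum to 1000000. Between 11793509 and 24417789 read pairs on genes were recovered per library. *Yy1* itself was at 96.0, 100.2 and 89.8 TPM in control KD and at 8.73, 8.90 and 8.32 TPM in *Yy1* KD libraries, which is 9.07% of the control mean. Of 17353 genes with at least 1 TPM in at least 3 libraries, limma with Benjamini-Hochberg adjustment called 728 downregulated and 333 upregulated at an adjusted p under 0.05 (548 and 388 with quantile normalization). Of 10 morula markers, all reached 1 TPM in every library, with a summed level between 2272 and 2567 TPM in control KD and between 1944 and 2190 TPM in *Yy1* KD. One of them, *Tfap2c*, was called, and fell. Of 10 cumulus cell markers, *Has2*, *Ptx3* and *Tnfaip6* were listed at 0 in every library. Those reaching 1 TPM in any library numbered 2 in control KD (*Nr5a2* and *Star*) and 4 in *Yy1* KD (also *Inha* and *Amh*). *Star* was at 0.871 to 2.53 TPM in control KD and 0.928 to 1.42 TPM in *Yy1* KD. *Inha* was at 0 in control KD and at 0.350, 0 and 1.78 TPM in *Yy1* KD. *Amh* was at 0.463, 0 and 0.0803 TPM and at 1.16, 0 and 0 TPM. The 10 summed to between 185 and 223 TPM in control KD and between 162 and 209.7 TPM in *Yy1* KD, of which *Nr5a2*, which the embryo also expresses, made up 158 to 220.3 TPM. The 10 oocyte and polar body markers summed to between 72.4 and 94.8 TPM in control KD and between 74.4 and 98.9 TPM in *Yy1* KD. In such pools, fewer cells of a type and less RNA per cell cannot be told apart.

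The consensus bound by YY1, GCCATNTT (AANATGGC on the other strand), was searched on both strands of RefSeq promoters (GRCm38.p6), from 250 nt before to 50 nt after the transcription start. Promoters were given for 8 of the 10 genes, and *Tead1* and *Tead4* had no entry. Of these 8, *Lats1* alone held the motif, at positions 18 to 25 after the start at chr10:7681222-7681251 on the plus strand. The stretch is shown because *Lats1* was also the Hippo gene that fell furthest. The capitals mark the motif.

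*Lats1*: aggcAAAATGGCggcggcagcgatggcctg

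The motif was present in 6.05% of all 32851 promoter windows and in 6.96% of 27025 genes with at least 1 window, so that 1 of 8 cannot be set apart from the background. It was also present in 2 of 65 further genes of the pathway with a promoter entry (3.08%), *Ywhae* and *Tnks2*. The shorter core GCCAT or ATGGC, which lies within the motif, was present in 3 of the 8 genes, *Lats1*, *Lats2* and *Sav1*, and in 44.2% of all genes. In *Lats1* it was present 2 times, from position 21 within the motif and from position 36. A match describes letters and not a bound site, and binding of YY1 was not analysed here.

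Among the 10 genes, *Lats1* fell and *Amot* rose, and the other 8 were not called. Calls were thus 2 of 10, beside a background of 6.11% of all genes tested and 9.26% of the 8357 genes with a mean TPM at least that of the lowest of the 10. The 3 control KD values and the 3 *Yy1* KD values did not overlap for 4 of the 10 genes, 3 of them lower and 1 higher in *Yy1* KD. Such separation was present in 30.1% of all genes tested (17.2% lower and 12.9% higher) and in 37.4% of genes in that range of TPM, so that 4 of 10 is near the background. The median log2 fold change of the 10 was -0.11, and that of all genes tested was -0.02.

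**Figure D1:**
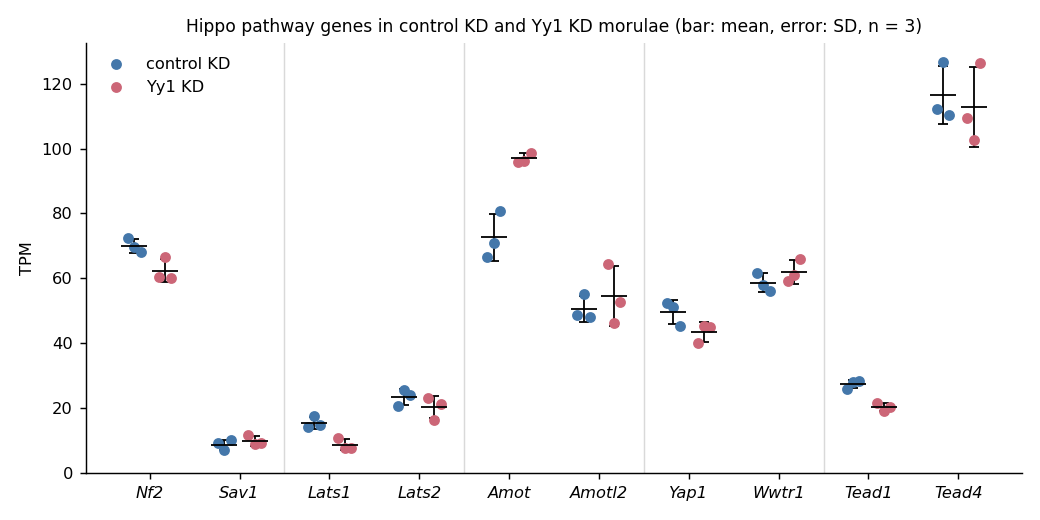
TPM of the 10 Hippo genes in each library (points), with the mean and SD of 3 libraries per group (black bars), for control KD (blue) and *Yy1* KD (red) morulae. *Tead4* is highest in both groups, *Amot* lies between 95.9 and 98.7 TPM in *Yy1* KD against 66.6 to 80.6 TPM in control KD, and *Lats1* lies below every control KD value in all 3 *Yy1* KD libraries.

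All 10 genes were expressed in every library, between 7.03 and 126.6 TPM. TPM is per length of all annotated exons of a gene, so the order below is one of TPM and depends on that length. In control KD morulae the order of the mean levels was *Tead4* (116 TPM), *Amot* (72.6), *Nf2* (70.0), *Wwtr1* (58.6), *Amotl2* (50.6), *Yap1* (49.6), *Tead1* (27.4), *Lats2* (23.4), *Lats1* (15.5) and *Sav1* (8.71). Of the 9 pairs of neighbours in this order, 2 had ranges that overlapped over the 3 libraries, *Amot* with *Nf2* and *Amotl2* with *Yap1*. In TPM, the coactivators and the scaffold *Nf2* were therefore above *Lats1* and *Lats2*. *Lats2* and *Sav1* share exon sequence with other genes, so their places are uncertain. In *Yy1* KD morulae the same first 8 places were taken in the same order, and *Sav1* (9.85 TPM) and *Lats1* (8.70 TPM) changed places, with overlapping ranges. Overlap was present in 4 of the 9 pairs there, *Nf2* with *Wwtr1*, *Wwtr1* with *Amotl2*, *Tead1* with *Lats2* and *Sav1* with *Lats1*. *Amot* stood clear of *Nf2* in this group.

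*Lats1*, the gene of 1 of the 2 LATS kinases, was at 14.1, 17.5 and 14.9 TPM in control KD and at 10.7, 7.69 and 7.72 TPM in *Yy1* KD libraries. The groups did not overlap, and the highest *Yy1* KD library was replicate 1. The mean went from 15.5 ± 1.81 to 8.70 ± 1.72 TPM (SD, n = 3 each), which is 56.2% of control, a log2 fold change of -0.77 (standard error 0.17, 95% interval -1.17 to -0.37, limma adjusted p = 0.0468). The two-sided exact permutation test gave p = 0.1, the smallest that 3 libraries against 3 allow. These values rest on 531, 1319.5 and 809.5 read pairs in control KD and on 604, 308.5 and 279 in *Yy1* KD libraries. *Lats1* (ENSMUSG00000040021.13) lies on chromosome 10 from 7681214 to 7716460, on the plus strand (GRCm38), and no other annotated gene overlaps its exons. The call stood near the threshold. When libraries were left out in turn, it was kept in 1 of 6 fits, without *Yy1* KD replicate 1 (adjusted p = 0.0472), and lost in the other 5 (up to 0.136, without *Yy1* KD replicate 2), while the fold change stayed between -0.92 and -0.69.

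*Lats2*, the related kinase gene, was at 20.5, 25.5 and 24.2 TPM in control KD and at 23.1, 16.4 and 21.2 TPM in *Yy1* KD libraries. The groups overlapped, and *Lats2* was not called (log2 fold change -0.21, 95% interval -0.57 to 0.16, limma adjusted p = 0.469). Of its 6971 nt of exons on chromosome 14, 2955 nt (42.4%) are also annotated to *Gm49361* on the same strand, and the authors divided read pairs on such sequence between both genes, so its level is uncertain. *Gm49361* was at 20.6 to 31.4 TPM over the 6 libraries.

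Upstream of the kinases, *Nf2* encodes the membrane scaffold Merlin, which brings LATS to the plasma membrane. It was at 72.3, 69.7 and 68.0 TPM in control KD and at 60.3, 66.5 and 60.2 TPM in *Yy1* KD libraries. Every *Yy1* KD value was below every control KD value, by a small distance, and the gene was not called (log2 fold change -0.17, 95% interval -0.35 to 0.02, limma adjusted p = 0.253). *Sav1*, the adaptor of the MST kinases, had the lowest control KD level of the 10, with 9.12, 7.03 and 9.99 TPM in control KD and 11.7, 8.77 and 9.12 TPM in *Yy1* KD libraries. The groups overlapped, and the interval of its change was wide (log2 fold change 0.16, 95% interval -0.27 to 0.59, limma adjusted p = 0.637). *Sav1* shares 1336 nt of its exons (25.4%) with *Atl1* on the opposite strand, and pairs were counted without regard to strand.

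*Amot* encodes angiomotin, which binds both NF2 and YAP and activates LATS at cell junctions. It was at 66.6, 70.8 and 80.6 TPM in control KD and at 95.9, 96.3 and 98.7 TPM in *Yy1* KD libraries. The 3 *Yy1* KD values lay close together, with a coefficient of variation of 1.57% against 9.92% in control KD, and all were above the control KD values. The mean went from 72.6 ± 7.21 to 97.0 ± 1.52 TPM (SD, n = 3 each), 133% of control, a log2 fold change of 0.42 (standard error 0.09, 95% interval 0.20 to 0.63, limma adjusted p = 0.0454). Leaving out any 1 of the 6 libraries ended the call, with adjusted p-values from 0.0639 (without control KD replicate 3) to 0.127 (without *Yy1* KD replicate 2) and fold changes from 0.36 to 0.49. It rested on at least 2895 read pairs in every library, and no other annotated gene overlaps its exons.

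*Amot* (ENSMUSG00000041688.16) lies on the X chromosome from 145446425 to 145505181, on the minus strand, and the sex of the embryos in the pools is not given in the labels. *Xist*, expressed from the inactive X of females, was at 49.7, 28.2 and 84.2 TPM in control KD and at 26.4, 30.1 and 58.5 TPM in *Yy1* KD libraries. The Y-linked *Ddx3y* was lower in *Yy1* KD, at 5.04, 5.14 and 3.55 TPM against 18.1, 30.5 and 17.8 TPM. *Eif2s3y*, also on the Y chromosome, overlapped between the groups (4.09 to 7.77 TPM in control KD and 3.23 to 5.24 TPM in *Yy1* KD). *Uty*, also Y-linked, was at 1.05 to 1.60 TPM in control KD and at 0.145 to 0.433 TPM in *Yy1* KD, and *Kdm5d* at 0.894 to 1.09 and 0.456 to 0.954 TPM. The part of the sex of the pools in the level of *Amot* was not tested.

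*Amotl2*, the relative of *Amot* that YAP and TEAD can themselves induce, was at 48.5, 55.3 and 48.1 TPM in control KD and at 64.5, 46.3 and 52.8 TPM in *Yy1* KD libraries. The *Yy1* KD values lay on both sides of the control KD values, and the gene was not called (log2 fold change 0.09, 95% interval -0.22 to 0.41, limma adjusted p = 0.720). Without *Yy1* KD replicate 1, its highest library, the fold change was -0.03.

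The coactivator genes were both expressed and neither was called. *Yap1* was at 52.3, 51.0 and 45.3 TPM in control KD and at 39.9, 45.4 and 45.0 TPM in *Yy1* KD libraries. The lowest control KD value lay just below the highest *Yy1* KD value, so the groups overlapped (log2 fold change -0.19, 95% interval -0.42 to 0.04, limma adjusted p = 0.303). *Wwtr1* was at 61.8, 57.8 and 56.1 TPM in control KD and at 59.0, 60.9 and 65.9 TPM in *Yy1* KD libraries, again with overlap (log2 fold change 0.08, 95% interval -0.12 to 0.27, limma adjusted p = 0.610). These intervals cover changes of the messenger RNA. Phosphorylation and the place of YAP in the cell, which the pathway controls, were not measured by RNA-seq.

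*Tead4*, which the trophectoderm needs, was at 112, 127 and 110.3 TPM in control KD and at 109.5, 103 and 126 TPM in *Yy1* KD libraries. The groups overlapped, with 2 of the *Yy1* KD values below every control KD value, and the log2 fold change was -0.05 (95% interval -0.29 to 0.20, limma adjusted p = 0.824), or 0.00 with quantile normalization. *Tead1* was at 25.9, 27.9 and 28.2 TPM in control KD and at 21.7, 19.0 and 20.2 TPM in *Yy1* KD libraries. All 3 *Yy1* KD values were below the control KD values, with means of 27.4 ± 1.24 and 20.3 ± 1.34 TPM (SD, n = 3 each), and *Tead1* missed the threshold (log2 fold change -0.41, 95% interval -0.65 to -0.18, limma adjusted p = 0.0577). It was called among genes with a mean of at least 5 TPM (adjusted p = 0.0370).

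**Figure D2:**
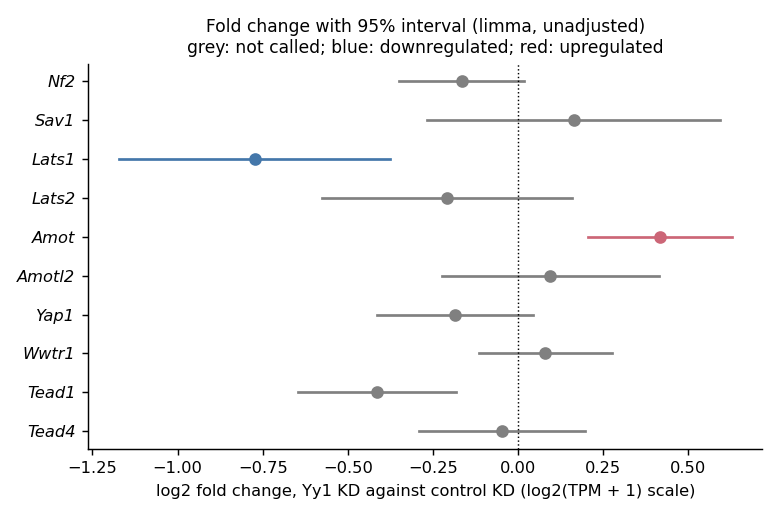
Log2 fold change of the 10 Hippo genes (points, log2(TPM + 1) scale, *Yy1* KD against control KD, 3 libraries each) with the unadjusted 95% interval from limma (lines), in blue where downregulated, in red where upregulated and in grey where not called. *Lats1* at -0.77 and *Amot* at 0.42 are called, the interval of *Tead1* is below 0 without a call after adjustment, and those of the other 7 cross 0.

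The 10 genes hold 4 pairs of paralogues, and a ratio within a library hardly depends on the scaling factor of that library (1 was added to each TPM). Each of the 4 ratios was compared with a two-sided exact permutation test of its log2 value (3 libraries against 3, smallest p = 0.1). The *Lats1* to *Lats2* ratio was -0.52, -0.52 and -0.66 on the log2 scale in control KD and -1.04, -1.005 and -1.35 in *Yy1* KD libraries. Its mean was lower in *Yy1* KD (difference -0.57, exact permutation p = 0.1, adjusted p = 0.133), and the groups did not overlap. The *Yap1* to *Wwtr1* ratio was -0.24 ± 0.06 in control KD and -0.50 ± 0.08 in *Yy1* KD (SD, n = 3 each), without overlap (exact permutation p = 0.1, adjusted p = 0.133), although neither gene was called. The *Tead4* to *Tead1* ratio was 2.05 ± 0.11 in control KD and 2.42 ± 0.16 in *Yy1* KD (SD, n = 3 each), also without overlap (exact permutation p = 0.1, adjusted p = 0.133). In TPM, *Tead4* was 4.26 times *Tead1* in control KD and 5.57 times in *Yy1* KD morulae. The *Amotl2* to *Amot* ratio was -0.51 ± 0.20 and -0.83 ± 0.24 (SD, n = 3 each), with overlap (exact permutation p = 0.2, adjusted p = 0.2). With 3 libraries per group none of these tests can pass 0.05, and a ratio shows unequal change of the 2 genes, not which of them changed. Reads shared with *Gm49361* enter the *Lats2* side of the first ratio.

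**Figure D3:**
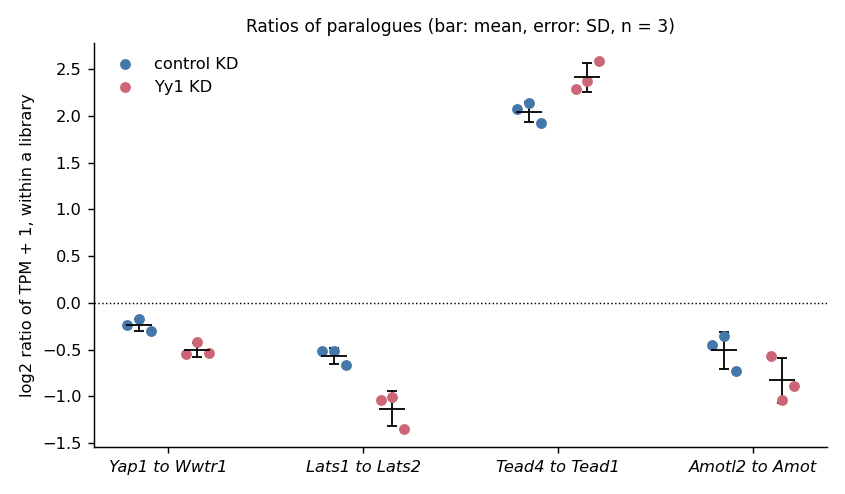
Log2 ratio of TPM + 1 of 4 pairs of paralogues within each library (points), with the mean and SD of 3 libraries per group (black bars), for control KD (blue) and *Yy1* KD (red). The first 3 ratios do not overlap between the groups, and the *Amotl2* to *Amot* ratio does.

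The rest of the pathway was described by 6 lists of 92 further genes. Of these, 16 were below the limit of 1 TPM in 3 libraries, 13 of the 76 tested were downregulated (17.1%), 1 was upregulated and 62 were not called. Over all genes tested, 4.2% were downregulated and 1.92% upregulated. Calls in either direction made up 18.4% of the 76. They made up 9.26% of the 8357 genes with a mean TPM at least that of *Sav1*, the lowest Hippo gene described above. Some of the 76 lie below that range. Without overlap of the groups, 23 of the 76 were lower and 6 higher in *Yy1* KD. Such separation in either direction was present in 37.4% of genes in that range. The median log2 fold change of the 76 was -0.07, close to the -0.02 of all genes, so that a minority of genes carried the calls. Leaving out any 1 library lowered the count of downregulated genes, to between 3 (without control KD replicate 2, control KD replicate 3 or *Yy1* KD replicate 2) and 7 (without *Yy1* KD replicate 1).

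**Figure D4:**
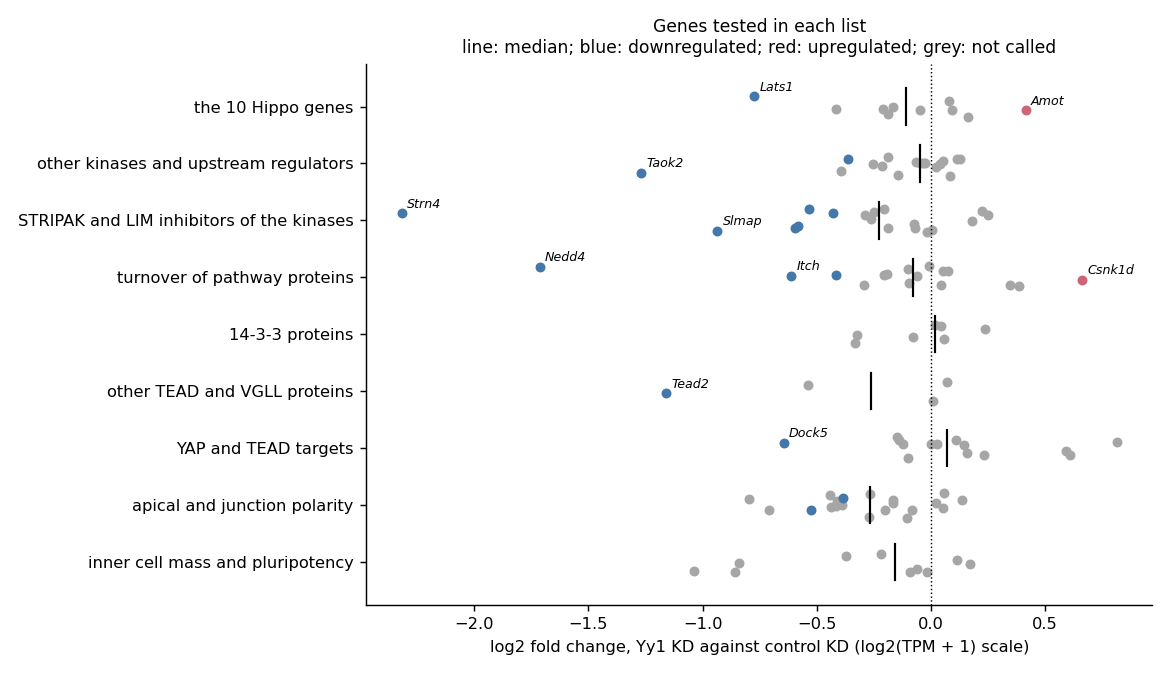
Log2 fold change (log2(TPM + 1) scale, *Yy1* KD against control KD) of every tested gene in 9 lists, with the median of each list (line), blue for downregulated, red for upregulated and grey for not called. *Strn4* at -2.32 lies furthest to the left, and of all genes shown *Amot* and *Csnk1d* are called on the right.

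STRIPAK, a phosphatase complex, removes activating phosphates from the MST kinases, and LIM proteins of the Ajuba family bind and inhibit LATS. Of 20 genes for STRIPAK and Ajuba family proteins, 6 of 18 tested were downregulated, beside 4.2% of all genes tested, with a median log2 fold change of -0.23. Among genes with a mean TPM at least that of *Sav1*, 9.26% were called in either direction. With 1 library left out, between 2 and 3 genes of this list were called. *Strn4*, a striatin that forms the core of STRIPAK, was at 15.1, 17.4 and 18.0 TPM in control KD and at 2.14, 2.65 and 2.97 TPM in *Yy1* KD libraries, which is 15.4% of control (log2 fold change -2.32, standard error 0.16, limma adjusted p = 0.00222). *Slmap*, the subunit that binds MST kinases, was at 86.9, 80.2 and 79.6 TPM and at 44.3, 42.7 and 40.5 TPM (log2 fold change -0.94, standard error 0.08, limma adjusted p = 0.00484). Both genes separated clearly between the groups and were called under all 15 alternatives. The striatin *Strn3* (-0.43), the phosphatase subunit *Ppp2ca* (-0.53), the kinase *Stk25* (-0.58) and *Ajuba* (-0.60) fell by less, with limma adjusted p-values from 0.0196 to 0.0460, and each lost its call in 5 or more of the 6 fits that left out 1 library. Of the exons of *Ppp2ca*, 39.9% overlap *9430098F02Rik* on the opposite strand, and *Stk25* shares 17.4% with *Farp2*, so pairs of these genes could be divided. *Strn*, the remaining striatin gene, was at 85.4 to 89.9 TPM in control KD and at 72.0 to 83.1 TPM in *Yy1* KD, without overlap and without a call (limma adjusted p = 0.188, log2 fold change -0.21). Of the 18 genes tested, 7 were lower and 2 higher without overlap of the groups. The higher genes, neither called, were *Pdcd10* (log2 fold change 0.22) and *Ppp2cb*, the paralogue of *Ppp2ca*. *Ppp2cb* was at 157, 173 and 165 TPM in control KD and at 181, 197 and 212 TPM in *Yy1* KD libraries (log2 fold change 0.25, limma adjusted p = 0.128).

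Of 21 further kinases and upstream regulators, 2 of 17 tested were downregulated and the median was -0.05. *Taok2*, a kinase that can act on the MST and LATS kinases, was at 28.3, 24.1 and 26.4 TPM in control KD and at 11.5, 9.29 and 10.2 TPM in *Yy1* KD libraries. That is 39.3% of control (log2 fold change -1.27, standard error 0.12, limma adjusted p = 0.00762), and the call held under all 15 alternatives. *Wwc2*, a relative of the scaffold KIBRA that activates LATS, had means of 45.1 ± 0.472 and 34.8 ± 0.442 TPM (SD, n = 3 each) and a log2 fold change of -0.36 (limma adjusted p = 0.0402) and was not called in any of the 6 fits that left out 1 library. The MST kinase genes were not called, *Stk3* at 17.1 to 21.0 TPM in control KD and 14.5 to 19.2 TPM in *Yy1* KD, and *Stk4* at 67.6 to 74.5 and 69.8 to 81.0 TPM. The protocadherin genes *Fat4* and *Dchs1*, which lie upstream of the pathway in other tissues, were at 0.230 TPM or less in every library.

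Ubiquitin ligases and their partners set how much of the pathway's proteins remains. Of 16 such genes, all were tested, 3 were downregulated and 1 was upregulated, with a median of -0.08. *Nedd4* and *Itch* encode ligases that bind LATS and angiomotin proteins. *Nedd4* was at 4.78, 5.73 and 8.18 TPM in control KD and at 1.22, 1.08 and 1.19 TPM in *Yy1* KD libraries (log2 fold change -1.71, standard error 0.23, limma adjusted p = 0.0136). *Itch* was at 49.7, 52.0 and 54.1 TPM and at 34.0, 31.7 and 35.3 TPM (log2 fold change -0.61, standard error 0.08, limma adjusted p = 0.0149). Both genes were thus clearly lower in every *Yy1* KD library, and *Nedd4* kept its call in 3 and *Itch* in 2 of the 6 fits with 1 library left out. The X-linked deubiquitinase gene *Usp9x*, whose product acts on angiomotin, fell (log2 fold change -0.41, limma adjusted p = 0.0468), without a call in any of those 6 fits. *Csnk1d*, a casein kinase that marks phosphorylated YAP for degradation, rose from 23.2, 24.4 and 20.9 TPM to 36.6, 36.2 and 37.3 TPM (log2 fold change 0.66, standard error 0.09, limma adjusted p = 0.0160). Its call was kept in 2 of the 6 fits. The related gene *Csnk1e* was more abundant and went the other way, without overlap of the groups and without a call. It was at 75.3, 79.7 and 67.7 TPM in control KD and at 66.8, 62.1 and 63.3 TPM in *Yy1* KD libraries (log2 fold change -0.21, limma adjusted p = 0.209).

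The 14-3-3 proteins hold phosphorylated YAP in the cytoplasm. None of their 7 genes was called by limma on TPM (3 at an unadjusted p under 0.05, and 2 by limma-voom on recovered read pairs, which called 12.3% of all genes it tested). An unadjusted limma p of 0.0496 ranked 4110 among all 17353 genes tested, so that such p-values were common. The most abundant were *Sfn*, at 1589 to 1860 TPM in control KD and 1636 to 1856 TPM in *Yy1* KD, and *Ywhae*, at 870.4 to 909.6 and 806 to 871 TPM. Of 6 other TEAD genes and VGLL genes, whose products compete with YAP for TEAD, 4 were tested and 1 was called. *Tead2* was at 10.9, 10.9 and 11.6 TPM in control KD and at 5.79, 2.92 and 4.97 TPM in *Yy1* KD libraries, 41.0% of control (log2 fold change -1.16, standard error 0.22, limma adjusted p = 0.0356), and its call was kept in 1 of 6 fits with a library left out. In both groups *Tead2* was below *Tead4* and *Tead1*.

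Genes that YAP and TEAD are known to induce were read as outputs of the pathway. Of 22, 14 were tested, 1 was downregulated and 13 were not called, and the median log2 fold change was 0.07. This median was -0.11 among genes with a mean of at least 5 TPM and between -0.008 and 0.14 with 1 library left out, so its sign depended on the processing. *Cdx2*, the trophectoderm factor switched on in outer cells, was at 56.1, 61.6 and 65.0 TPM in control KD and at 69.3, 57.1 and 57.0 TPM in *Yy1* KD libraries (log2 fold change 0.00, 95% interval -0.26 to 0.26, limma adjusted p = 0.995). *Gata3*, another trophectoderm factor, was at 45.3, 43.1 and 40.0 TPM and at 51.0, 31.5 and 36.1 TPM (log2 fold change -0.14, 95% interval -0.56 to 0.28, limma adjusted p = 0.684). For both genes the *Yy1* KD values lay on both sides of the control KD mean. The general YAP targets *Ccn1* and *Ccn2* varied more between libraries, *Ccn1* from 8.01 to 20.3 TPM in control KD and from 16.0 to 20.7 TPM in *Yy1* KD, and *Ccn2* from 13.1 to 22.7 and from 11.8 to 22.5 TPM. Neither was called (log2 fold change 0.59, 95% interval -0.14 to 1.33, and -0.10, 95% interval -0.75 to 0.56), and *Ccn2* shares 23.2% of its exons with *Gm15270* on the opposite strand. The called gene was *Dock5*, an exchange factor for small GTPases, with means of 28.8 ± 3.72 and 18.1 ± 2.46 TPM (SD, n = 3 each) and a log2 fold change of -0.65 (limma adjusted p = 0.0496), which lost its call in 13 of 15 alternatives. *Sox2*, which active YAP and TEAD4 repress in outer cells and which marks inner cells, was at 8.73, 9.93 and 14.3 TPM in control KD and at 7.03, 5.75 and 4.02 TPM in *Yy1* KD. The groups did not overlap, without a call (log2 fold change -0.86, 95% interval -1.45 to -0.27, limma adjusted p = 0.0942).

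Polarity and junction genes, through which cells of the morula sense position, are the nearest neighbours of the pathway. Of 20, all tested, 2 were downregulated, *Ctnnb1*, which encodes the junction protein β-catenin (133 ± 12.3 to 92.0 ± 3.35 TPM, SD, n = 3 each, limma adjusted p = 0.0257), and the myosin heavy chain gene *Myh9* (105 ± 3.33 to 80.6 ± 7.06 TPM, limma adjusted p = 0.0499). Neither was called in any of the 6 fits with a library left out, whereas limma-voom on recovered read pairs called 10 of the 20, all downregulated. It did not test *Pard3* and *Cgn*, whose pairs were not recovered. Over all 16931 genes in that fit, 7.59% were downregulated. *Ctnnb1* shares 14.6% of its exons with *Ulk4* on the opposite strand. The *Ctnnb1* promoter, at chr9:120933469-120933498 on the plus strand, held the YY1 motif from 98 to 91 nt before the start and is shown as the other site in a gene called here. The motif was present in 3 of 15 polarity and junction genes with a promoter entry, against 6.96% of all genes, and the others, *Cgn* (limma adjusted p = 0.515) and *Dlg1* (limma adjusted p = 0.0614), were not called.

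*Ctnnb1*: ccttgtgcggcGCCATCTTaagccctcgct

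The list median was -0.27. Without overlap of the groups, 10 of 20 genes were lower and 1 higher, beside 3 lower and 1 higher of the 10 Hippo genes. Of all genes tested, 17.2% were lower and 12.9% higher in this way. Among genes with a mean TPM at least that of the lowest Hippo gene, 37.4% separated in either direction. The difference between the polarity list and the 10 Hippo genes was not tested. Of 10 inner cell mass and pluripotency genes, none was called by limma on TPM (4 at an unadjusted p under 0.05, 1 by limma-voom, median -0.16). Such p-values were common, since an unadjusted limma p of 0.0496 ranked 4110 among all 17353 genes tested, and limma-voom called 12.3% of its genes. The most abundant of the 10, *Pou5f1* and *Tfcp2l1*, were at 649 to 742 TPM and at 324 to 401 TPM over all 6 libraries, with overlap. Of the 10, 5 were lower without overlap of the groups, namely *Sox2*, *Tdgf1* (log2 fold change -0.84), *Prdm14* (-1.04), *Klf2* (-0.37) and *Sall4* (-0.09), and 0 were higher.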

How the data were processed

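The data were 3 control KD and 3 *Yy1* KD libraries prepared with the SMART-Seq Stranded kit and grouped by their labels. The authors trimmed the reads (Trim Galore 0.6.7), aligned them to mm10 with HISAT2 2.2.1, removed ribosomal RNA reads with bedtools, counted pairs on GENCODE vM25 genes with featureCounts 2.0.1 (a pair on overlapping genes is divided between them, without regard to strand). The table deposited by the authors holds TPM. Versions are those of the submitters' processing notes. Overlapping or antisense genes can therefore gain or lose pairs.

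TPM are not counts, so the study's count test was not the main test. Genes with at least 1 TPM in at least 3 libraries were tested on log2(TPM + 1) by limma 3.58.1 under R 4.3.3, with a variance trend. Two-sided p-values were adjusted by Benjamini-Hochberg over all genes tested. Fold changes on this scale understate the change of low genes. Intervals (95%) are unadjusted. Exon lengths and coordinates came from GENCODE vM21 (GRCm38), which held the same version of 54312 of 55364 genes. *Tead1* had another version, so its pairs were not recovered and limma-voom did not test it. The same held for *Csnk1d*, *Csnk1e*, *Nedd4*, *Nedd4l*, *Pard3*, *Cgn*, *Vgll2* and *Rbms3* of the lists. TPM multiplied by length gave whole pairs (within 0.02) for 88.96% to 90.9% of values under 20 pairs in genes without overlap. The fit was tested on simulated data.

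The 10 genes and all lists were chosen with earlier results of these data known. Genes outside the 10 were named where called, as outputs of the pathway (*Cdx2*, *Gata3*, *Ccn1*, *Ccn2*, *Sox2*), or as the 2 most abundant of a list without calls. Some were named only because their pairs were not recovered. *Strn*, *Stk3*, *Stk4*, *Fat4*, *Dchs1*, *Tfap2c*, *Nr5a2*, *Tnks2*, *Cgn*, *Dlg1*, *Tdgf1*, *Prdm14*, *Klf2*, *Sall4* and the sex-linked genes *Xist*, *Ddx3y*, *Eif2s3y*, *Uty* and *Kdm5d* were named after their values were seen. So were the cumulus markers *Star*, *Inha* and *Amh*, and the values of *Ppp2cb*, *Pdcd10* and *Csnk1e* were added in the same way. Alternatives were another pseudocount, filter, scaling, variance model, library weights, a replicate block, limma-voom and leaving out each library. Protein sequences were not used here. Python 3.11.15 with pandas 2.3.3 and, for the plots, matplotlib 3.10.9 was used.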

Additional observations from a re-analysis of the deposited data

How the results depend on the processing

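The number of calls depended on the processing more than the fold changes did. In place of 728 downregulated and 333 upregulated genes, 270 and 77 were called without a filter on low values, 382 and 132 without a variance trend, 218 and 69 with a replicate block, and 1285 and 801 by limma-voom on recovered read pairs. Leaving out 1 library gave between 53 (without control KD replicate 3) and 326 downregulated genes and between 22 and 92 upregulated genes. Of the 10 Hippo genes, 2 were called, but 0 without a filter, without a variance trend and with the replicate block, 1 (*Amot*) with median-ratio scaling and with quantile normalization, and between 0 and 1 when 1 library was left out. Of the further pathway genes, 13 were downregulated, against 6 without a filter, 5 without a variance trend, 3 with the replicate block and between 3 and 7 without 1 library. In place of 1 upregulated gene there, 0 were called with the replicate block, 2 by limma-voom and between 0 and 1 without 1 library. Limma-voom could not test *Csnk1d*, the upregulated gene, so that its 2 calls were of other genes. The replicate numbers gave no sign of pairing the libraries. The correlation of the deviations of libraries with the same number was -0.004, 0.03 and 0.07. With 3 libraries per group this check cannot exclude batches that same-numbered libraries share. The block result is given only here.

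Over 476 fold changes of single genes under alternatives, 331 kept direction and call, 133 kept direction and lost the call, 1 gained it and 11 changed sign. The last were *Tead4* with quantile normalization (0.00087), *Cdx2* with library weights (-0.011), *Ccn2* with limma-voom (0.019), and, with 1 library left out, *Tead4* (-0.13 to 0.018), *Amotl2* (-0.031 to 0.20), *Cdx2* (-0.091 to 0.050), *Gata3* (-0.33 to 0.0069) and *Ccn2* (-0.34 to 0.10). None of these genes was called by limma under any alternative run, and the cause was not tested. The 4 ratios of paralogues kept their direction in all 9 alternatives run for each. Of the 9 Hippo genes with recovered read pairs (not *Tead1*), *Sav1* had the fewest, 238 to 475.5 per library.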
